A study of Mus musculus with 4 samples.

Results

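The 3 genes Brd2, Brd3 and Brdt of the BET (bromodomain and extra-terminal) family were followed by their gene names in the deposited expression table. They are 3 of its 31600 features, each with 1 row, and the family's other genes were not analysed here. RNA came from mouse spermatogonial stem cells, from which sperm production in the testis is maintained. The control group (2 libraries, replicates 1 and 2) was labelled wild type, and the second group (2 libraries) was labelled differentiation, with no further agent, allele, time point or age in the labels. How differentiation was brought about, and whether replicates came from separate cultures or animals, is absent from the sources used here. The p-values below therefore measure only the spread between these libraries, which may be technical.

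BET proteins carry paired bromodomains that bind acetylated lysines of histones, and an extra-terminal domain that binds partner proteins. At acetylated promoters and enhancers some members of the family help to recruit P-TEFb, the kinase that releases paused RNA polymerase II into elongation. Brd2 and Brd3 are transcribed in most tissues, whereas Brdt is the family member restricted to male germ cells. In the mouse, Brdt is needed for the gene programme of meiotic spermatocytes and for the compaction of acetylated chromatin in spermatids.

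Total RNA freed of ribosomal RNA was sequenced, and levels are in FPKM, which scales fragments by exon length and by depth. Of features under 300 fragments, 96.2% came out as whole fragments, within 0.05, at depths of 19461724 and 20650244 for the control libraries and 17772011 and 20363286 for the others. The 3 features with ribosomal-RNA-like sequence took 20.8% to 22.6% of the fragments in control and 17.7% to 18.3% in differentiation. A mean of 0.5 FPKM or more was required for testing, which 23138 features met, and 56.6% of these were called by limma at an adjusted p under 0.05, 29.6% higher and 27.0% lower in differentiation. These 6848 higher and 6246 lower features became 5792 and 7601 after quantile normalization and 5880 and 7493 after median centring, so that which direction was more frequent depends on the scaling. The groups did not overlap in 79.9% of all 23138 features tested, called or not, higher in 40.9% and lower in 39.1%. A call by itself is therefore common in this comparison, and the sizes of the changes carry more information. Log2 fold changes were computed from log2(FPKM + 1), which understates the change of low genes.

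On the GRCm38 build, GENCODE M21 places Brdt on chromosome 5 from 107331159 to 107387058 on the plus strand, with 5115 exonic bases. Brd2 lies on chromosome 17 from 34112023 to 34122634 on the minus strand, with 7826 exonic bases that include annotated retained introns. Brd3 lies on chromosome 2 from 27445579 to 27507662 on the minus strand, with 7336 exonic bases. The 250 bases before a RefSeq start site (GRCm38.p6) of each gene are shown because the genes changed to different degrees, and capitals mark matches to the E-box CACGTG or to the box with the letters CCAAT, searched on both strands.
Brdt, chr5:107330944-107331193, plus strand: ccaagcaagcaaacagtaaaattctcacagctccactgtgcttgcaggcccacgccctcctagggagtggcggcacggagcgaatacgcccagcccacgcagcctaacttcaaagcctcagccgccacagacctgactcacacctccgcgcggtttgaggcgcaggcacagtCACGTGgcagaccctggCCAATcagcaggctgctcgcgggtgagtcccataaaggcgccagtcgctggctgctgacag
Brd2, outermost of its start sites, chr17:34122608-34122857, minus strand: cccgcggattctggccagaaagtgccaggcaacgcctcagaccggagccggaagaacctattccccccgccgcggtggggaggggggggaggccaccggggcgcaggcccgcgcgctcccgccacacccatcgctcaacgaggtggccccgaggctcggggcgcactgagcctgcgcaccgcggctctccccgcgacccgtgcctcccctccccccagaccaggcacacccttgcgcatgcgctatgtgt
Brd3, chr2:27475399-27475648, minus strand: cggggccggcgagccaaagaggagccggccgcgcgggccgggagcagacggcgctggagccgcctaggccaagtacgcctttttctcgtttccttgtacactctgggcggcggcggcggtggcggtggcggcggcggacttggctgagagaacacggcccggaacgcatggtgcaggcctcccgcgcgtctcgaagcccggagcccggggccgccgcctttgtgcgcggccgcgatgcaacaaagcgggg
The Brdt window held 1 E-box at position -78 and 1 match to CCAAT at position -61, counted from the start site. GENCODE M21 places the first base of Brdt inside this window, and that of Brd2 inside the Brd2 window shown. The Brd3 start site lies inside the span of the GENCODE gene. Neither motif was in the Brd2 window or the Brd3 window. Of 32851 windows of this length before annotated start sites, 6.02% held CACGTG and 33.8% held CCAAT. No window of the 3 genes held TGACGTCA (a CRE), which 1.55% of all windows did. The motifs were chosen after the sequences were seen. CpG dinucleotides numbered 16 in the Brdt window, 27 in the Brd2 window and 37 in the Brd3 window, against a median of 6 and an upper quartile of 16 over all windows. The germ-cell gene thus had fewer CpGs than either ubiquitous gene in these windows, though Brd2 has another start site whose window held 12.

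Brdt showed by far the largest change of the 3 genes. Its level was 4.86 and 4.53 FPKM in the control libraries and 30.2 and 30.4 FPKM in the differentiation libraries. The groups were far apart, and both control libraries already held Brdt RNA, resting on 484 and 478 fragments against 2748 and 3165 in differentiation. Brdt rose from 4.69 ± 0.238 to 30.3 ± 0.111 FPKM (SD of 2 libraries each), 6.46-fold in FPKM. The log2 fold change was 2.46 (SE 0.05, 95% interval 2.33 to 2.59; limma adjusted p = 9.12e-05). The authors' deposited table gave a log2 fold change of 2.69 and listed the adjusted p at 0. Brdt exceeded 57.4% of the 18287 protein-coding genes of the table in control and 94.4% in differentiation. Among the features tested, 98.2% had a smaller log2 fold change. In such bulk libraries, a change in the number of cells of a type and a change in RNA per cell cannot be told apart.

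Brd3 moved the other way. This widely expressed gene stood at 14.7 and 14.3 FPKM in the control libraries and at 9.50 and 9.88 in the others, so that both differentiation libraries were below both control libraries. It fell from 14.5 ± 0.297 to 9.69 ± 0.272 FPKM (SD of 2 libraries each), a log2 fold change of -0.54 (SE 0.04, 95% interval -0.66 to -0.42; limma adjusted p = 1.27e-03). The authors' deposited table gave -0.58 with an adjusted p of 2.78e-20. Its fragments numbered 2105 and 2170 in the control libraries against 1238 and 1476. Brd3 exceeded 84.4% of protein-coding genes in control and 73.4% in differentiation.

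Brd2 was the most abundant of the 3 genes and changed least. It stood at 55.4 and 55.6 FPKM in the control libraries and at 61.1 and 60.0 in the others. The groups did not overlap, but the means differed only 1.09-fold, 55.5 ± 0.124 against 60.5 ± 0.774 FPKM (SD of 2 libraries each). The log2 fold change was 0.12 (SE 0.03, 95% interval 0.05 to 0.19), which passed at a limma adjusted p of 0.0180. The authors' deposited table gave 0.13 with an adjusted p of 1.49e-03. The call did not hold without control replicate 1 or 2 or without differentiation replicate 1 or 2 (limma adjusted p = 0.0803, 0.0746, 0.0750 and 0.0538). It was also lost when the libraries were centred on their medians, which differed by 0.09 in log2 between the groups (log2 fold change 0.03; limma adjusted p = 0.355). Brd2 exceeded 98.3% of protein-coding genes in control and 98.5% in differentiation. Its values rested on 8438 to 9562 fragments per library.

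**Figure D1:**
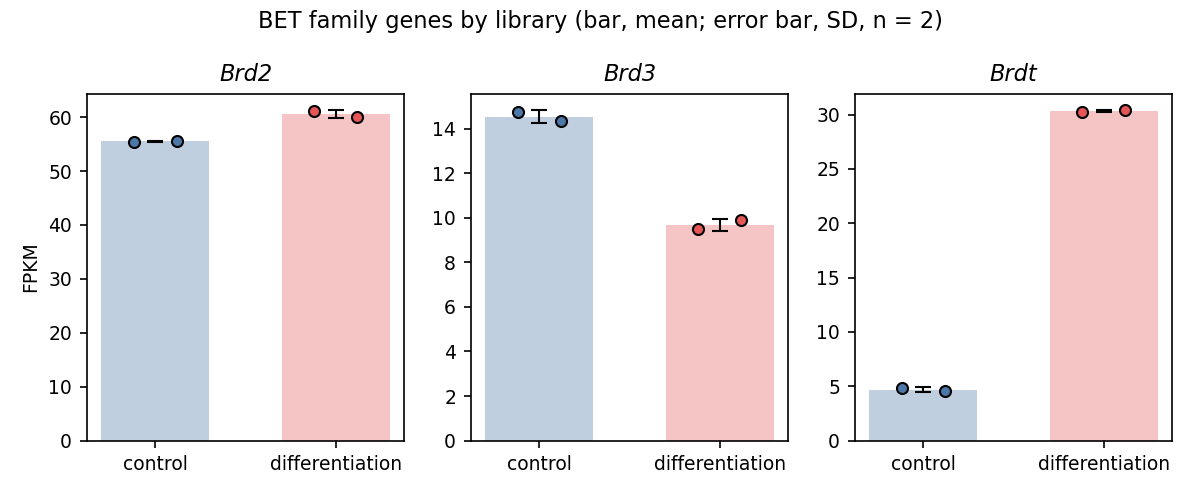
FPKM of Brd2, Brd3 and Brdt in the 2 control and 2 differentiation libraries (points), with the group mean (bar) and SD (n = 2), each panel on its own axis from 0. Brdt goes from 4.69 to 30.3 FPKM, Brd3 from 14.5 to 9.69 FPKM, and Brd2 from 55.5 to 60.5 FPKM.

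The order of the 3 genes changed between the groups. In both control libraries it was Brd2, Brd3, Brdt, and in both differentiation libraries Brd2, Brdt, Brd3, with neighbours in the order far apart relative to the spread of replicates. Because FPKM divides by exon length, these levels can be compared between genes, although the retained introns counted in the length of Brd2 bear on its value. Brdt made up 6.48% and 6.08% of the summed FPKM of the 3 genes in control and 30.0% and 30.3% in differentiation. Brd2 went from 73.9% and 74.7% of the sum to 60.6% and 59.8%, and Brd3 from 19.7% and 19.2% to 9.42% and 9.85%. The sum itself was 75.0 and 74.4 FPKM in control and 100.8 and 100.3 FPKM in differentiation. The higher sum lay mostly in Brdt.

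**Figure D2:**
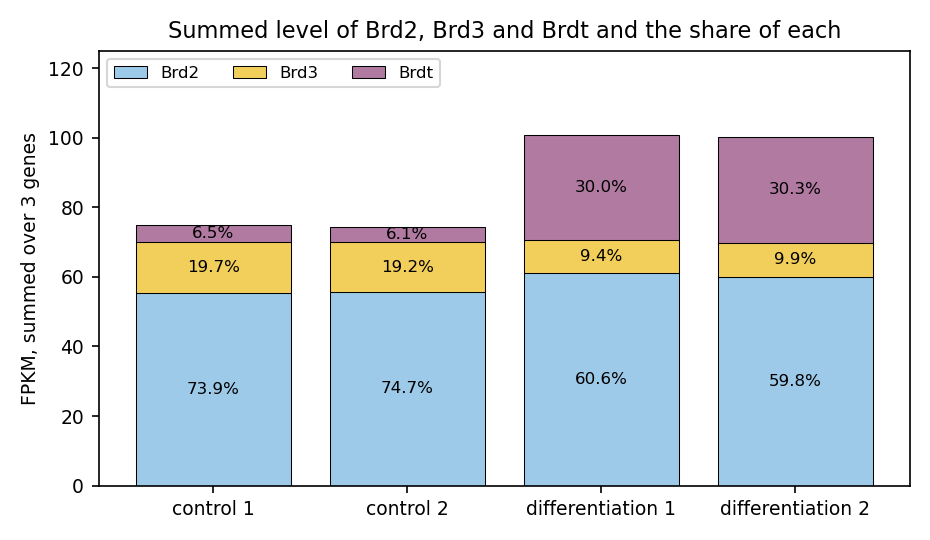
Stacked FPKM of Brd2, Brd3 and Brdt in each library, with the percentage of the sum that each gene makes up. Brdt is the thinnest segment in both control libraries (6.48% and 6.08%) and the second largest in both differentiation libraries (30.0% and 30.3%).

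Ratios within each library set the germ-cell gene directly against the widely expressed ones. Brd2 exceeded Brdt 11.4-fold and 12.3-fold in the control libraries and 2.02-fold and 1.97-fold in the differentiation libraries. The log2 ratio of Brdt to Brd2 was thus 2.57 higher in differentiation, with SDs of 0.08 in control and 0.02 in differentiation (n = 2 per group). Brd3 exceeded Brdt 3.03-fold and 3.17-fold in control, whereas Brdt exceeded Brd3 3.18-fold and 3.08-fold in differentiation. That log2 ratio was 3.28 higher in differentiation. Brd2 also gained on Brd3, from 3.76-fold and 3.88-fold to 6.43-fold and 6.07-fold, a log2 difference of 0.71. For each of these 3 pairs the groups did not overlap, and the two-sided exact permutation test gave p = 0.333, the smallest that 2 libraries against 2 allow. The value is 0.333 also after adjustment over the 3 pairs.

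A limma fit over all features after subtraction of the log2 level of the reference gene in each library, added after seeing the data, tested the same differences with the spread of all features. Relative to Brd2, Brdt was higher by 2.34 (95% interval 2.16 to 2.52; limma adjusted p = 6.93e-04), where 23.3% of features were called higher. Relative to Brd3, Brdt was higher by 3.00 (95% interval 2.81 to 3.19; limma adjusted p = 1.83e-04), where 61.7% were called higher. Brd2 was higher relative to Brd3 by 0.66 (95% interval 0.46 to 0.86; limma adjusted p = 2.63e-03). The changes of the 3 genes therefore differed from one another by more than the spread between libraries.

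Genes of other bromodomain proteins were compared next, since they carry a bromodomain without belonging to the BET family. Of 35 such genes listed, 33 were tested, 17 were higher and 9 lower, with a median log2 fold change of 0.17, against 0.01 over all features tested. The share called higher, 51.5%, stands beside 29.6% of all features, and the share called lower, 27.3%, beside 27.0%. After quantile normalization 11 were higher and 13 lower, and after median centring 11 and 12. The balance of directions thus turned with the scaling, as it did over all features. Those were 5792 higher and 7601 lower after quantile normalization, and 5880 and 7493 after median centring. When any 1 library was left out, fewer were called higher, in this list as over all features. Ranked together with the 3 BET genes, Brdt had the largest log2 fold change of the 36, Brd2 was in position 19 and Brd3 in position 32. The next after Brdt were Baz1a, a chromatin assembly factor subunit, and Baz2a, of the nucleolar remodelling complex. Baz1a rose from 7.52 ± 0.049 to 19.1 ± 0.544 FPKM (SD of 2 libraries each), and Baz2a from 25.7 ± 0.455 to 57.2 ± 1.77 FPKM. Brd8, of the NuA4 acetyltransferase complex, rose by 0.84 on the log2 scale. At the other end, the acetyltransferase Kat2a fell from 20.8 ± 0.751 to 10.2 ± 0.631 FPKM (SD of 2 libraries each). Brwd3 and Taf1, the largest TFIID subunit, had log2 fold changes of -0.88 and -0.62. The intervals of Brdt (2.33 to 2.59) and Baz1a (1.13 to 1.35) did not overlap.

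**Figure D3:**
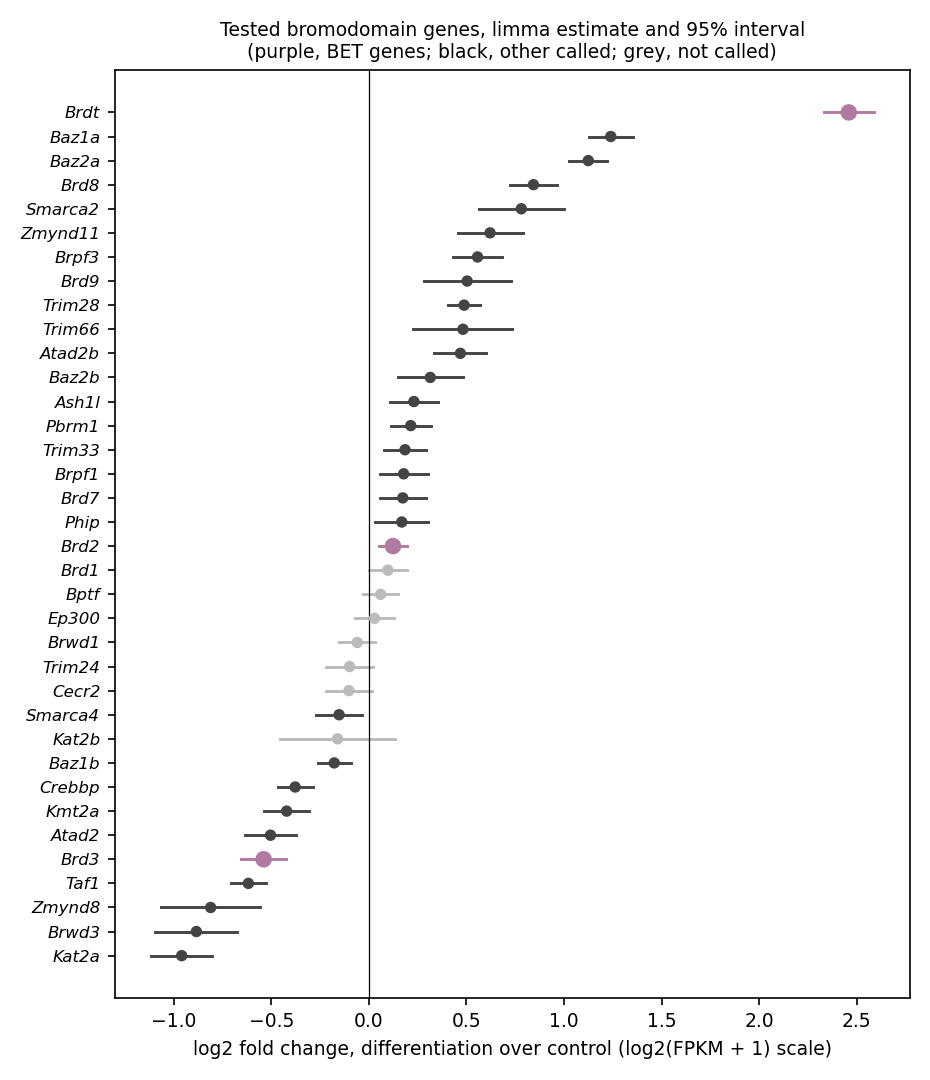
Log2 fold change (differentiation over control, log2(FPKM + 1) scale) of 36 tested bromodomain genes, with the limma estimate as a point and its 95% interval as a line, ordered by size. Brdt stands alone at 2.46, above Baz1a at 1.24, while Brd2 (0.12) and Brd3 (-0.54) lie among the other genes.

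Some BET proteins act on elongation through P-TEFb, a pair of the kinase Cdk9 and a cyclin T. Whether Brd2, Brd3 or Brdt did so in these cells was not tested. Of 29 tested genes of P-TEFb and the elongation machinery, 12 were higher (41.4%) and 8 lower (27.6%), with a median log2 fold change of 0.08, against 29.6% and 27.0% of all features. After quantile normalization 9 were higher and 11 lower, and after median centring 10 and 11. Under both settings more of all features were lower than higher too. The kinase and its main cyclin were lower. Cdk9 fell from 15.3 ± 0.757 to 11.9 ± 0.573 FPKM (SD of 2 libraries each; limma adjusted p = 9.82e-03), and Ccnt1 from 15.0 ± 0.227 to 12.6 ± 0.549 FPKM (limma adjusted p = 0.0154). Hexim1, which holds P-TEFb inactive, fell from 15.9 ± 0.363 to 13.4 ± 0.587 FPKM, with a limma adjusted p of 0.0173. These 3 genes were named after their values were seen, and each call was lost without 1 library or more: Cdk9 without differentiation replicate 2 (limma adjusted p = 0.0585), Ccnt1 without control replicate 1 or 2 or differentiation replicate 2 (0.0568, 0.0727 and 0.0606), and Hexim1 without control replicate 1 or 2 or differentiation replicate 1 (0.0800, 0.0537 and 0.0693). The other cyclin T gene of the list, Ccnt2, also named after its value was seen, pointed the opposite way without passing. Its level went from 8.80 ± 0.234 to 10.1 ± 0.533 FPKM (SD of 2 libraries each). The groups did not overlap, and the log2 fold change was 0.18 (limma adjusted p = 0.0523). Its result under other settings is not given here. Larp7, which with the 7SK RNA keeps P-TEFb in reserve, rose from 13.9 ± 1.61 to 27.9 ± 0.515 FPKM (SD of 2 libraries each). Aff4, the scaffold of the super elongation complex, rose from 14.9 ± 0.008 to 29.2 ± 0.885 FPKM, and its paralog Aff1 fell by 0.63 on the log2 scale. Ccnk, the cyclin of the elongation kinases Cdk12 and Cdk13, showed the largest rise of the list, from 17.2 ± 0.170 to 43.4 ± 1.79 FPKM (SD of 2 libraries each). Mllt3, a reader of acylated histones in the super elongation complex, fell by 0.96 on the log2 scale.

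Genes of proteins bound by the extra-terminal domain had a median log2 fold change of -0.17. Of 5 such genes, 1 was higher, the histone methyltransferase gene Nsd3 (log2 fold change 0.25, limma adjusted p = 0.0125), and 1 was lower, the remodeller gene Chd4 (-0.21, limma adjusted p = 5.81e-03). The Nsd3 call was lost without control replicate 1, differentiation replicate 1 or differentiation replicate 2 (limma adjusted p = 0.0635, 0.0646 and 0.0606) and after quantile normalization (0.0716). Jmjd6, Atad5 and Bicra had log2 fold changes of -0.17, -0.08 and -0.29 and did not pass. Under quantile normalization or median centring 4 of the 5 genes were lower, where more of all features were lower than higher too.

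For enzymes that write and erase the acetyl mark, genes were called in both directions. Of 17 genes of histone acetyltransferases and their complexes, 8 were higher (47.1%) and 3 lower (17.6%), beside 29.6% and 27.0% of all features. The median log2 fold change was 0.03. Kat2a, Kat2b, Ep300, Crebbp, Brpf1 and Brpf3 were also counted among the bromodomain genes above. Kat7, the catalytic subunit of the HBO1 complex, rose from 27.1 ± 0.004 to 47.6 ± 0.728 FPKM (SD of 2 libraries each), and Morf4l1, a NuA4 subunit, from 17.3 ± 0.234 to 33.2 ± 0.066 FPKM. Kat2a and Crebbp fell by 0.96 and 0.38 on the log2 scale. After quantile normalization the counts were 5 higher and 7 lower, where more of all features were lower than higher too. Without control replicate 1 or 2, or without differentiation replicate 2, 5 were higher. Of 17 tested deacetylase and sirtuin genes, 4 were higher (23.5%) and 6 lower (35.3%), beside 29.6% and 27.0% of all features, with a median of -0.02. Sirt2, a mainly cytoplasmic deacetylase, rose from 2.84 ± 0.189 to 8.16 ± 0.461 FPKM (SD of 2 libraries each), and Sirt1 and Sirt3 rose by 0.50 and 0.73 on the log2 scale. Hdac3, named after its value was seen, was also called higher. That call was lost without differentiation replicate 1 or 2, where its log2 fold change was 0.41 and 0.45. Hdac6, Hdac7 and Hdac11 fell by 0.43, 0.54 and 0.74.

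The chromatin on which Brdt is known to act in spermatids was only in part represented. Of 14 genes of spermatid chromatin compaction in the table, 10 were tested, 6 were higher (60.0%) and 3 lower (30.0%). Over all features these shares were 29.6% and 27.0%. The median log2 fold change was 0.54, and the testis histone genes had the highest FPKM levels of those described. Hist1h1t, the linker histone of spermatocytes, rose from 18.1 ± 0.554 to 316 ± 13.7 FPKM (SD of 2 libraries each). Hist1h2ba, the testis H2B, rose from 437 ± 8.76 to 1133 ± 16.1 FPKM, and its divergently transcribed partner Hist1h2aa from 117 ± 5.21 to 181 ± 5.32 FPKM. The transition protein gene Tnp2 and the protamine gene Prm1, which are transcribed in haploid spermatids, stood at only 1.53 ± 0.012 and 0.951 ± 0.012 FPKM in differentiation, from 0.322 ± 0.206 and 0.268 ± 0.086 in control (SD of 2 libraries each). The Tnp2 call was lost without differentiation replicate 1 or 2 (limma adjusted p = 0.0521 and 0.0519). Prm2, Prm3, H1fnt and Hils1 were below the mean needed for testing. Cdyl, Nutm1 and, named after its value was seen, Chd5 fell by 0.71, 0.82 and 0.63 on the log2 scale.

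Germ cell stage markers moved in the same libraries as Brdt, where 29.6% of all features tested were called higher and 27.0% lower. Of 14 marker genes of pachytene spermatocytes, 13 were higher and 0 lower, with a median log2 fold change of 3.67. Their summed level went from 41.4 and 42.4 FPKM in control to 970.4 and 981.7 FPKM in differentiation. Brdt, at 2.46, changed less than the median of that list and more than the median of the 14 early meiotic prophase genes, 1.00, of which 11 were higher and 3 lower. Meiob, of meiotic recombination, and Hormad1, of the chromosome axis, rose by 2.95 and 2.15 on the log2 scale. Among 8 tested spermatid markers 4 were higher, but only 2 without differentiation replicate 1 or 2 and only 1 when a mean of 2 FPKM was required. Their list summed to 13.5 and 11.3 FPKM in control and 24.2 and 23.9 FPKM in differentiation. Tnp1, Tnp2, Prm1, Prm2 and Prm3 were also listed among the genes of spermatid chromatin compaction. Markers of undifferentiated spermatogonia, the labelled cell type, were lower in 12 of 17 tested genes, with Gfra1, the GDNF co-receptor, falling from 15.9 ± 0.653 FPKM to 3.45 ± 0.150 (SD of 2 libraries each). Id4, named after its value was seen, was the 1 gene of that list that was higher. Markers of differentiating spermatogonia were lower in 6 of 8 genes, Kit among them with a log2 fold change of -1.88.

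**Figure D4:**
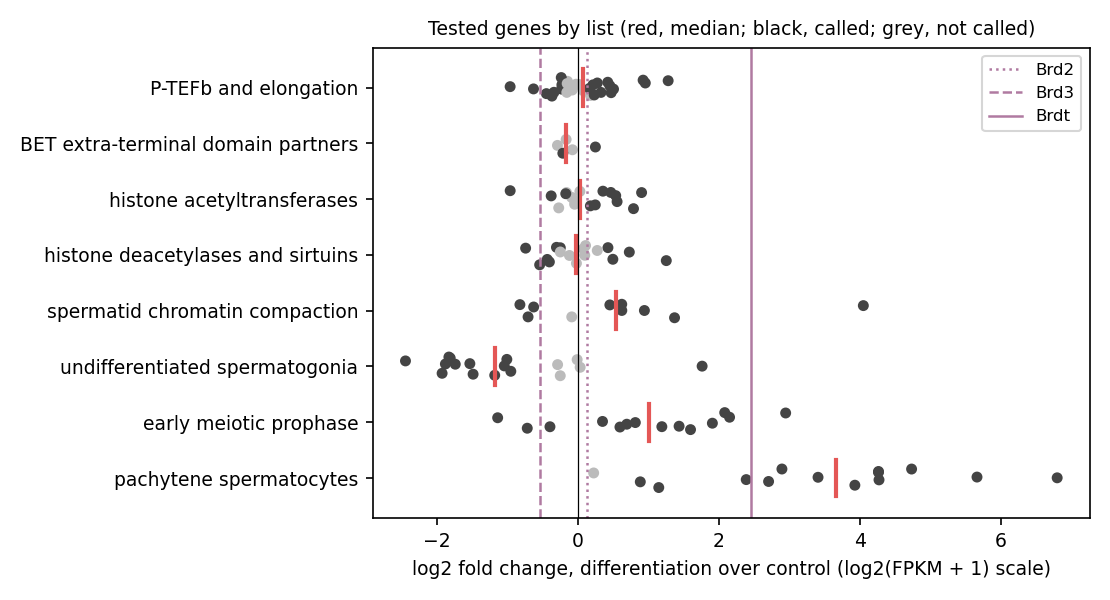
Log2 fold change of each tested gene (points, dark where called) in 8 gene lists, with the list median in red and vertical lines at Brd2 (0.12), Brd3 (-0.54) and Brdt (2.46). The Brdt line lies between the medians of the early meiotic prophase list (1.00) and the pachytene list (3.67), far from the medians of the elongation, acetyltransferase and deacetylase lists.

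Somatic and blood cell markers were present in both groups, none of those in the table at 0 in all libraries, and the summed FPKM of each list but that of Sertoli cells was lower in both differentiation libraries. Over all features tested, 27.0% were called lower and 29.6% higher. Fibroblast and peritubular markers were lower in 9 of 11 tested genes (sums of 245.4 and 245.9 FPKM in control, 88.8 and 82.2 in differentiation). Macrophage markers were lower in 7 of 8 (65.0 and 61.6 against 17.4 and 16.7 FPKM), and erythroid markers in 5 of 5 (525.5 and 520.1 against 105.3 and 94.9 FPKM). Leydig cell markers were lower in 3 of 5 and higher in 1 (42.9 and 44.3 against 25.2 and 24.5 FPKM), and endothelial markers lower in 2 of 5 (14.2 and 13.6 against 7.69 and 7.71 FPKM). Without any 1 of the 4 libraries, 1 endothelial marker was called lower. Sertoli cell markers went both ways, 4 higher and 3 lower of 9 (129.5 and 129.9 against 146.6 and 135.8 FPKM). The part of these shifts in the fall of Brd3, or in any other change above, was not tested.

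Among protein-coding genes, those whose log2(FPKM + 1) values over the 4 libraries lay closest to Brdt by Euclidean distance were Mybl1, Zfand4, Dnajb3, Pdha2 and Eno3, at distances of 0.09 to 0.22. Mybl1 encodes A-MYB, the transcription factor of pachytene spermatocytes, and it went from 4.74 ± 0.323 to 29.0 ± 0.602 FPKM (SD of 2 libraries each). Pdha2 encodes the testis form of a pyruvate dehydrogenase subunit. Among the closest to Brd3 were Mapk3, Mrpl49, Klc1 and Umps, at 0.04 to 0.08. Closest to Brd2 were Dnaja2, Prkar1a, Tmem59, Vcp and Ivns1abp, at 0.07 to 0.09. With 2 groups of 2 libraries, this measure mostly records a similar level in each group.

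The surroundings of Brdt also differed between the groups. Within 100 kb on either side of the gene, 10 annotated features were tested, 6 were higher and 2 lower in differentiation, against 29.6% and 27.0% of all features. All 6 higher ones began downstream of the Brdt start, and both lower ones upstream. Several of the higher ones overlap one another or Brdt, and the 2 lower ones overlap each other. The counts may therefore not stand for separate signals. Upstream, Tgfbr3, a TGF-beta co-receptor gene on the opposite strand, fell from 8.56 ± 0.519 to 4.64 ± 0.361 FPKM (SD of 2 libraries each). Gm8152, a processed pseudogene on the opposite strand inside the Brdt gene that shares no exonic base with it, was covered by 12 and 24 fragments in the control libraries against 64 and 58. Its call was lost without differentiation replicate 1 or 2 (limma adjusted p = 0.0697 and 0.0503). No source used here says whether counting was by strand, and unspliced Brdt RNA and Gm8152 RNA cannot be told apart. Gm42902, the nearest feature downstream, was covered by 14 and 20 control fragments against 45 and 80.

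A further 4 features further downstream, named after their values were seen, were higher too. Ephx4, an epoxide hydrolase gene whose start lies 71.6 kb from that of Brdt, stood at 0.312 and 0.50 FPKM in the control libraries and at 3.04 and 3.19 in the others. Lpcat2b, 100.4 kb away, stood at 0.166 and 0.139 FPKM in the control libraries and at 4.17 and 3.74 in the others. Gm17202, antisense to this stretch, went from 0.486 and 0.713 to 5.50 and 5.37 FPKM, and Btbd8 had a log2 fold change of 0.83. In FPKM, Ephx4, Lpcat2b and Gm17202 rose by a larger factor than Brdt, though from only 8 to 17 fragments per control library. Gm17202 runs opposite to Ephx4 and Lpcat2b and overlaps both, and Gm42902 runs opposite to Ephx4 and overlaps its start. Without strand, the fragments of such overlapping stretches cannot be told apart. The remaining tested features, Gm8145 upstream and Gm9727 downstream, did not pass, and Gm42900 upstream was lower.

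**Figure D5:**
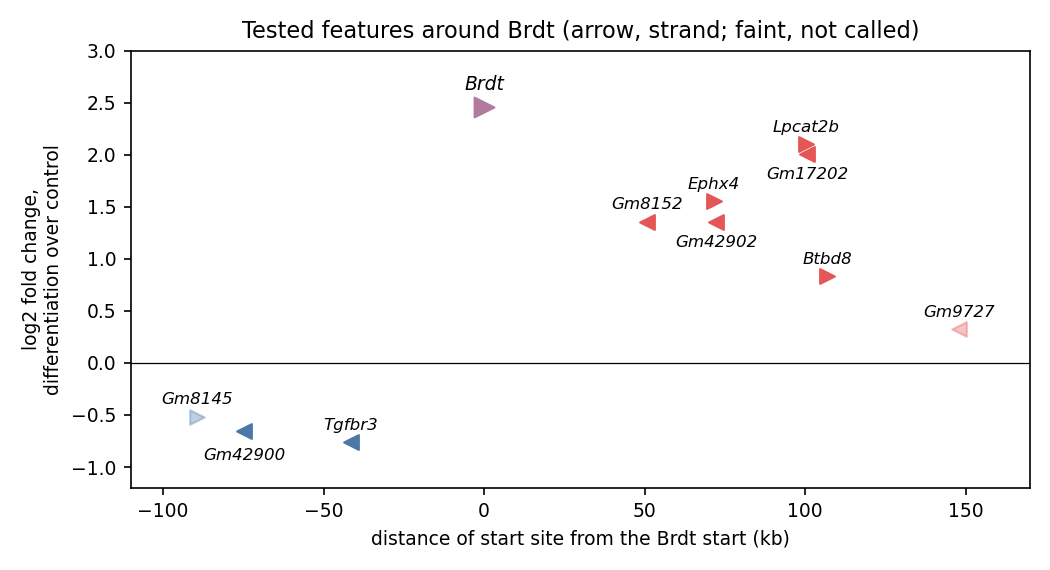
Log2 fold change (differentiation over control) of the 10 tested features within 100 kb of the Brdt gene, against the distance of their start site from that of Brdt in kb, with arrows for strand and faint marks for features not called. Features upstream lie below 0, and those downstream lie above 0 but below Brdt at 2.46 on the log2(FPKM + 1) scale. That scale understates the change of low features. In FPKM, Lpcat2b, Gm17202 and Ephx4 rose by a larger factor than Brdt (6.46-fold).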

How the data were processed

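Per the submitters' processing notes, HISAT2 and the GRCm38 build were used; no source used here names the counting tool, the annotation or strand use. The authors deposited 1 table of FPKM per feature and library, with their log2 fold change, p-value and adjusted p from an unnamed test. TRIzol was used for total RNA, from which ribosomal RNA was removed, per the labels' protocols.

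The main test was limma 3.58.1 (R 4.3.3) with trend, fitted to log2(FPKM + 1), group as the only term, for features averaging 0.5 FPKM or more, two-sided, Benjamini-Hochberg adjusted p under 0.05 over all features (2 residual and 2.14 prior degrees of freedom). It was checked on simulated data. Fragments were recovered from FPKM and GENCODE M21 exonic lengths, at which 96.2% of features under 300 fragments were whole within 0.05. Where a symbol had several features, the one with the highest mean was used. Log2 ratios between members used no pseudocount and a two-sided exact permutation test.

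The members and gene lists were chosen with earlier results of these data known. The genes named were the members, features overlapping or nearest to them, up to 4 per list by smallest p, up to 2 per direction by size in lists tied to BET function, and the 5 closest in level to each member. Others are marked. Not every named gene is printed. Alternatives covered the pseudocount, filter, scaling, trend, replicate block, leaving out each library and limma-voom. Python 3.11.15, pandas 2.3.3 and scipy 1.17.1 did the rest.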

Additional observations from a re-analysis of the deposited data

How the results depend on the processing

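Brdt kept its direction and call under all 12 alternatives (log2 fold change 2.34 to 2.69), as did Brd3 (-0.66 to -0.51). Brd2 kept its direction but not its call after quantile normalization (0.076; limma adjusted p = 0.0686), median centring (0.031; 0.355), without an intensity trend (0.12; 0.124) and without any 1 library (0.11 to 0.14; 0.0538 to 0.0803). Without the trend the SE of Brd2 was 0.052 against 0.026 in the main fit, at the same log2 fold change. Leaving out a library also leaves fewer samples. The cause of these lost calls was not tested. The log2 ratios were 2.51 to 2.62 (Brdt to Brd2), 3.25 to 3.31 (Brdt to Brd3) and 0.67 to 0.75 (Brd2 to Brd3) without 1 library, and passed in the added limma fit (2.34, 3.00 and 0.66). The number of features called was 13094 with all libraries and 9438 to 10217 without 1 library. Bromodomain genes called higher numbered 11 after quantile normalization, 11 after median centring and 9 to 11 without 1 library. BET partners called higher numbered 0 after quantile normalization and 0 to 1 without 1 library, and those called lower 4 after quantile normalization, 4 after median centring, 2 without trend and 3 with limma-voom. Acetyltransferase genes called higher numbered 5 after quantile normalization and 5 to 6 without 1 library, and those called lower 7 after quantile normalization and 6 after median centring. Among 116 other named genes, 94 kept direction and call under every setting in which they were tested (some fell below the stricter filter), and Dnaja2 reversed after median centring (-0.0021). The replicate block changed no call of a member (limma adjusted p = 0.0400 for Brd2, 5.55e-03 for Brd3 and 9.65e-04 for Brdt). Same-numbered libraries did not deviate together over the features (correlation -0.00041). With 2 libraries per group this cannot decide whether the replicate numbers denote pairs. Low counts limit Gm8152 and Gm42902.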

Other observations

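Brd2 lies in the major histocompatibility region, and of 16 features tested within 100 kb of it 7 were higher and 2 lower in differentiation, beside 29.6% and 27.0% of all features. H2-DMa, an antigen-loading gene on the opposite strand that shares 360 exonic bases with Brd2, rose from 2.13 ± 0.003 to 3.86 ± 0.172 FPKM (SD of 2 libraries each), with a limma adjusted p of 4.28e-03. It held 143 to 279 fragments per library against 8438 to 9562 for Brd2, and without strand their shared bases cannot be told apart. The pseudogene Gm20493, the nearest feature with values upstream of Brd2 that does not overlap it, changed by 0.42 on the log2 scale. That change did not pass (limma adjusted p = 0.0539). It did pass when a mean of 2 FPKM was required (0.0492) and with the replicate block (0.0385). Tap1, a peptide transporter gene of antigen presentation, and Psmb8, an immunoproteasome subunit gene, both named after their values were seen, were lower with log2 fold changes of -0.60 and -0.40, while Tap2 was higher at 0.40.

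Around Brd3, 6 features were tested, of which limma called 0 higher and 2 lower, beside 29.6% and 27.0% of all features. Wdr5, a shared subunit of histone methyltransferase complexes, was lower by a log2 fold change of -0.13, with a limma adjusted p of 0.0159, a call lost without any 1 of the 4 libraries (0.0604 to 0.0759) and without an intensity trend (0.111). Vav2, a guanine nucleotide exchange factor gene named after its value was seen, fell from 9.22 ± 0.011 to 3.4 ± 0.128 FPKM (SD of 2 libraries each). Brd3os, on the strand opposite to Brd3, was at 1.71 and 1.81 FPKM in control and 2.08 and 2.02 FPKM in differentiation and did not pass (limma adjusted p = 0.237).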
